A study of Oryza sativa with 6 samples.

Results

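The genes described here encode expansins and the enzymes that make, cut or modify the polysaccharides of the plant cell wall, measured in rice leaves with and without glyphosate. The rule that chose them used the annotation and no expression value. An entry of the gene table was taken when its description named an expansin, xyloglucan, glycosyl hydrolases family 16 (GH16), cellulose synthase, CESA, pectinesterase, polygalacturonase or pectate lyase, which gave 166 of 35018 entries. Leaf RNA came from CA21, a glyphosate-tolerant rice line, and all 6 libraries were of this line. Seedlings at the third-leaf stage were either sprayed with glyphosate at 2 mg/ml (GLY, 3 libraries) or left unsprayed (CK, 3 libraries). CA21 was bred from a mutagenised rice variety and is a single line, so the values describe that background only. The leaves were taken when sprayed plants of a sensitive rice line, P1003, had died. The labels give 3 replications per group without saying that they were separate cultures, so p-values measure the spread between these samples only.

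Glyphosate is a herbicide that blocks the synthesis of aromatic amino acids in the chloroplast. The wall of a grass leaf cell is a network of cellulose fibres embedded in hemicelluloses, with less pectin than in dicots. Expansins loosen this network without cutting it, cellulose synthases of the CESA family spin out cellulose at the plasma membrane, and cellulose synthase-like (CSL) proteins make hemicellulose backbones. Enzymes of GH16 include those that cut and rejoin xyloglucan, a hemicellulose. Pectinesterases remove methyl groups from pectin, and polygalacturonases and pectate lyases cut the pectin chain.

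The deposited values are FPKM, in which sequenced fragments are scaled by gene length and by library size, so that levels can be set side by side between genes. Read coverage divided by FPKM gives the total used for scaling. It was between 3.43 and 3.80 Gb in the CK libraries and between 3.84 and 4.40 Gb in the GLY libraries. This total is not the sequenced yield, and the paper lists more valid reads for every CK library than for any GLY library. Of all entries, 19316 with a mean of at least 0.5 FPKM over the 6 libraries were tested with limma on log2(FPKM + 1), and a gene was called where its log2 fold change was 1 or more in either direction and its Benjamini-Hochberg adjusted p was under 0.05. This scale makes the changes of weakly expressed genes look smaller than they are. The calls over the whole table were 1151 up and 405 down in GLY, against 713 and 638 after median-of-ratios scaling, a second scaling that brought the median log2 fold change over the table from 0.20 to -0.01. In a further fit the library-size term of Ballgown was added to the model and the moderation of variances was left out. No entry was called by limma in it, and the library-size term followed the treatment with a correlation of 0.988. In that fit 5 of the wall genes had an unadjusted p under 0.05. Genes encoding chlorophyll A-B binding proteins and the small chain of Rubisco mark leaf mesophyll cells. They summed to between 48625 and 53723 FPKM in CK and between 28842 and 40558 FPKM in GLY. Of the 19 tested, 1 was called higher and none lower at these thresholds, against 5.96% and 2.1% of all tested entries. At an adjusted p under 0.05 alone, 2 were higher and 7 lower, against 19.3% and 5.65% of all tested entries. Of 13 tested genes with pollen or flower descriptions, 1 was called higher and none lower, against 5.96% and 2.1% of all tested entries. No entry matched the descriptions set for dividing cells or roots. The part of these markers in the results was not tested. In RNA of whole leaves, fewer cells of a type and less RNA per cell cannot be told apart.

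Wall genes were mostly weakly expressed in these leaves. Of the 166, 57 reached the minimum of 0.5 FPKM and were tested. The other 109 had a highest mean of 0.468 FPKM and a median of 0.0627 FPKM, and 28 of them were above 0 in every library while 25 were above 0 in a single library. Among the 57, 14 passed the minimum through GLY alone, with a CK mean under 0.5 FPKM, and 3 passed it through CK alone. Such genes had to differ to be tested, so the counts over the tested genes are descriptions.

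In GLY, 10 wall genes rose and 2 fell. These 12 were 21.1% of the 57 tested, and over all tested entries 8.06% were called (5.96% higher and 2.1% lower). The genes that rose were 5 CESA genes, 2 polygalacturonases, 1 expansin, 1 CSLA gene and 1 pectinesterase, and those that fell were 1 beta-expansin and 1 GH16 gene. At the adjusted p alone, 15 wall genes were higher and 5 lower, against 24.9% of all entries in both directions together (19.3% higher and 5.65% lower). The median log2 fold change of the 57 was 0.36, with 42 above 0 and 15 below, and it was 0.20 after median-of-ratios scaling, with 35 above 0 and 22 below. Over all tested entries the median was 0.20, with 13004 above 0 and 6312 below, and it was -0.01 after that scaling. The 3 GLY libraries lay above the 3 CK libraries for 27 of the 57 and below them for 7, and over all tested entries this was so for 34.3% and 10.6% (44.9% in all).

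**Figure D1:**
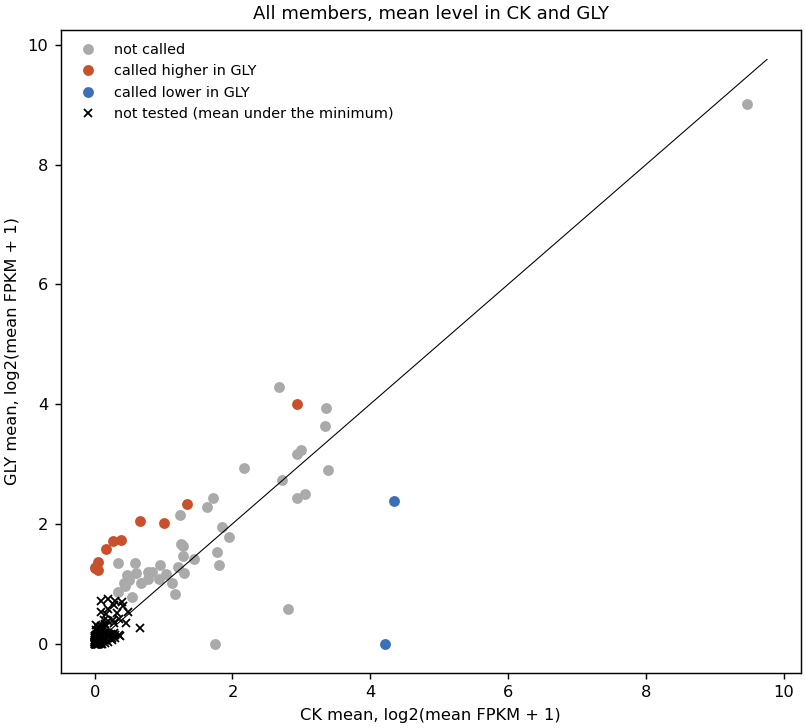
Mean level of all 166 wall genes in the 3 CK libraries (x axis) and the 3 GLY libraries (y axis), both as log2(mean FPKM + 1); each point is 1 gene, crosses are the 109 genes that were not tested, and the line marks equal levels. The 10 genes called higher lie above the line, 6 of them with a CK mean under 0.5 FPKM, and the 2 called lower lie below it, with 1 at 0 in GLY; the point at the upper right is the pectinesterase inhibitor gene LOC_Os03g01020.

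**Figure D2:**
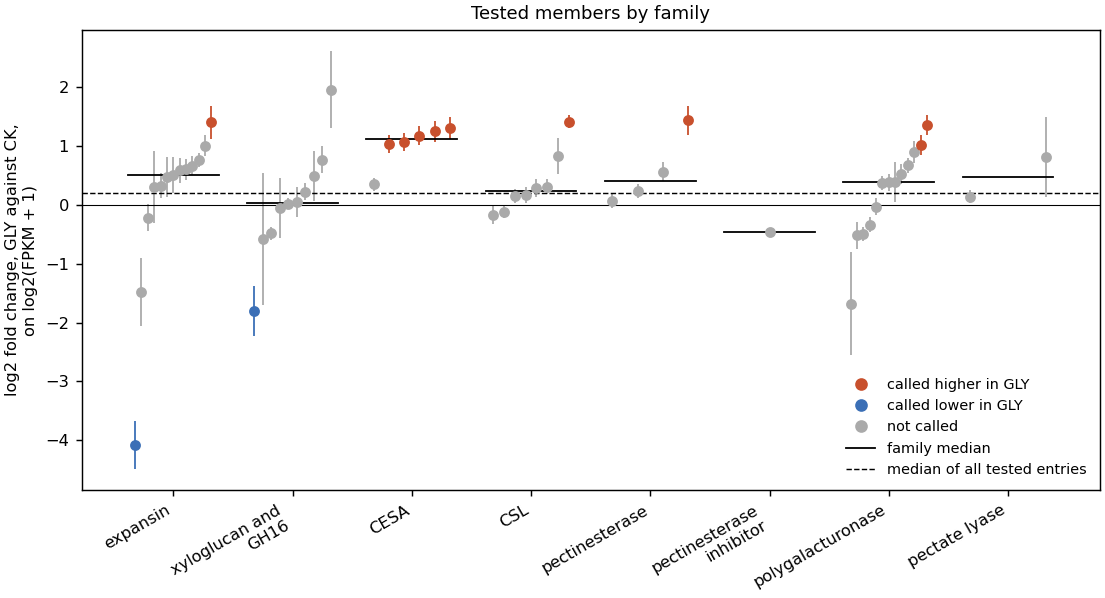
Log2 fold change of GLY against CK, on log2(FPKM + 1), of each of the 57 tested wall genes by family; error bars are the standard errors from limma, short bars are family medians, the dashed line is the median of all tested entries (0.20), and colours mark the calls. The CESA genes lie between 0.35 and 1.30, all above 0, and the expansins run from -4.08 to 1.40.

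Of 10 CESA entries 6 were tested, and 5 of them rose in GLY while none fell, against 5.96% and 2.1% of all tested entries. Of the 5, 3 were tested through GLY alone. After median-of-ratios scaling 3 of the 5 were called. The summed FPKM of the 10 was 9.15, 11.0 and 8.76 in CK1, CK2 and CK3, and 27.0, 27.3 and 22.2 in GLY1, GLY2 and GLY3. The groups did not overlap, and the mean went from 9.63 ± 1.19 to 25.5 ± 2.84 FPKM (SD, n = 3 each), which was 2.65 times the CK mean. The median log2 fold change of the 6 tested genes was 1.12, and 0.95 after median-of-ratios scaling.

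CESA4, CESA7 and CESA9 make the cellulose of secondary walls in rice, the thick walls of fibres and water-conducting cells, and mutants in each of them have brittle stems. CESA4 (LOC_Os01g54620, chr1:31422946-31428688) was at 0, 0.0983 and 0 FPKM in CK1 to CK3 and at 1.74, 1.93 and 1.04 FPKM in GLY1 to GLY3. CESA7 (LOC_Os10g32980, chr10:17261952-17266613) was at 0, 0 and 0.0176 FPKM in CK and at 1.65, 1.67 and 0.90 FPKM in GLY. CESA9 (LOC_Os09g25490, chr9:15281268-15285910) was at 0.0358, 0.0322 and 0.0440 FPKM in CK and at 1.47, 1.64 and 0.959 FPKM in GLY. All 3 genes were near 0 in every CK library, and in each of them GLY3 was the lowest of the GLY libraries. They passed the minimum through GLY alone. Their log2 fold changes were 1.30 (SE 0.179), 1.24 (SE 0.180) and 1.17 (SE 0.160), with adjusted p = 0.00601, 0.00691 and 0.00587 by limma. The read coverage of the CESA4 transcript was 4.01 to 8.20 reads per base in the GLY libraries and at most 0.373 in the CK libraries.

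CESA1, CESA3 and CESA8 belong to the complex that makes cellulose in the primary walls of growing cells. CESA3 (LOC_Os07g24190, chr7:13741284-13747256) had the highest level among the CESA entries chosen, with 6.66, 7.99 and 5.39 FPKM in CK and 15.7, 15.4 and 13.6 FPKM in GLY. It rose with a log2 fold change of 1.06 (SE 0.148, adjusted p = 0.00618 by limma), and every GLY library was above every CK library. CESA6 (LOC_Os07g14850, chr7:8496189-8501906) was at 0.676, 1.15 and 1.18 FPKM in CK and at 3.27, 3.33 and 2.56 FPKM in GLY, again without overlap. Its log2 fold change was 1.02 (SE 0.153, adjusted p = 0.00778 by limma). Both lay close to the fold threshold and passed under it after median-of-ratios scaling, at 0.79 for CESA3 and 0.83 for CESA6, while their adjusted p stayed under 0.05. The fold change of CESA3 was 0.94 without CK3, and that of CESA6 was 0.90, 0.98 and 0.97 without CK1, GLY1 and GLY2. CESA5 (LOC_Os03g62090) had 1.33, 1.38 and 1.62 FPKM in CK and 2.33, 2.02 and 1.95 FPKM in GLY, with a log2 fold change of 0.35 (SE 0.107, adjusted p = 0.0658 by limma), which missed both thresholds. The remaining 4 CESA entries were not tested. Among them CESA2 (LOC_Os03g59340) was at 0.0786 to 0.178 FPKM in CK and at 0.467 to 0.529 FPKM in GLY, and it overlaps a polygalacturonase gene on the other strand, LOC_Os03g59330. Whether reads were counted by strand is not given in the sources used here.

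CESA1 and CESA8 carry their description on a transcript and not on the gene entry, so the choice by gene description left them out. CESA1 (LOC_Os05g08370) was at 2.38, 2.90 and 2.14 FPKM in CK and at 10.2, 9.97 and 7.43 FPKM in GLY (log2 fold change 1.55, SE 0.154, adjusted p = 0.00257 by limma). CESA8 (LOC_Os07g10770) was at 3.17, 4.93 and 2.79 FPKM in CK and at 9.53, 11.6 and 8.48 FPKM in GLY (log2 fold change 1.25, SE 0.205, adjusted p = 0.0102 by limma). The groups did not overlap for either gene, and the fold change of CESA8 was 0.99 after median-of-ratios scaling. In all, 10 entries had a matching description on a transcript only. Of the 9 tested 3 were called higher and none lower, against 5.96% and 2.1% of all tested entries. The third, after CESA1 and CESA8, was a polygalacturonase, LOC_Os09g26800, with a log2 fold change of 1.01. This last fold change was at the threshold, and it was 0.77 after median-of-ratios scaling, 0.999 without CK2, 0.85 without CK3 and 0.99 without GLY1.

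**Figure D3:**
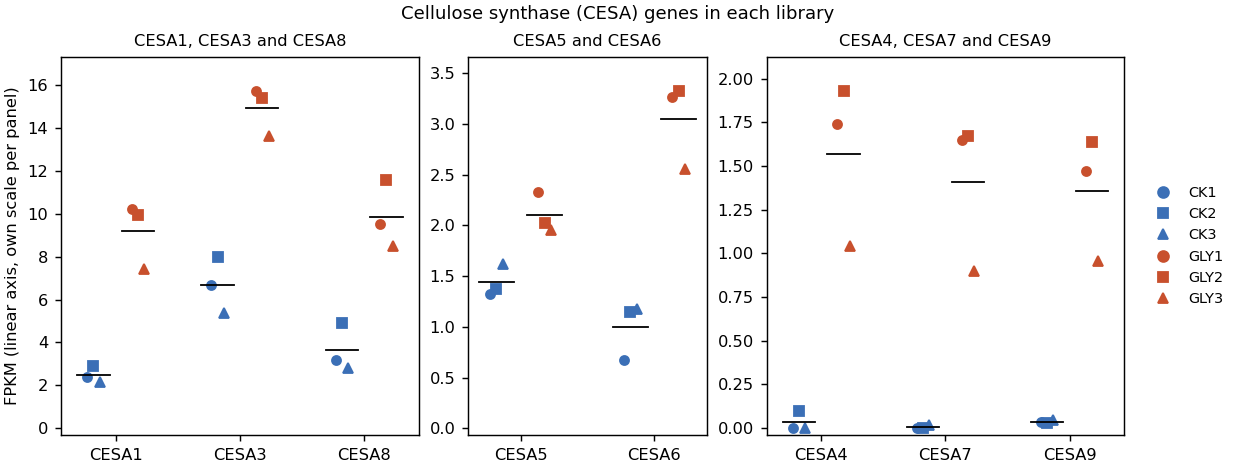
FPKM of 8 CESA genes in each of the 6 libraries, on linear axes with a scale of its own in each panel; points are libraries and bars are group means (n = 3). The CK and GLY libraries do not overlap in any panel, CESA4, CESA7 and CESA9 are at or near 0 in CK, and CESA1 and CESA8 are shown although their gene entries carry no description.

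The expansins did not move as 1 group. Of 34 entries 13 were tested, 1 rose and 1 fell, and at the adjusted p alone 4 were higher and 1 lower. Over all tested entries 5.96% were called higher and 2.1% lower, and these shares were 19.3% and 5.65% at the adjusted p alone. The 6 entries described as beta-expansins, a group that is large in grasses, summed to 28.3, 8.58 and 25.8 FPKM in CK1 to CK3 and to 2.52, 3.71 and 4.28 FPKM in GLY1 to GLY3. The other 28 expansins summed to 27.8, 22.5 and 22.8 FPKM in CK and to 35.4, 41.2 and 35.2 FPKM in GLY. The first sum was lower and the second higher in all GLY libraries than in any CK library. Single beta-expansins did not all follow their sum, since 2 of the 4 tested had a log2 fold change above 0 and 2 below. Of the 9 other expansins tested, 8 had a log2 fold change above 0 and 1 below, against 13004 and 6312 of all tested entries. The groups did not overlap for 4 of these 9, all higher in GLY, against 34.3% higher and 10.6% lower over all tested entries. The median log2 fold change of the 13 tested genes was 0.50, and 0.33 after median-of-ratios scaling.

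A single gene carried most of the beta-expansin total in CK, and without it the other 5 entries summed to 4.33, 0.938 and 4.59 FPKM in CK and to 2.52, 3.71 and 4.28 FPKM in GLY, with overlapping groups. LOC_Os09g29690 (chr9:18058253-18059176) was at 23.9, 7.64 and 21.2 FPKM in CK and was listed at 0 in all 3 GLY libraries. It fell, with a log2 fold change of -4.08 on the log2(FPKM + 1) scale (SE 0.409, adjusted p = 0.00261 by limma), and CK2 was the lowest of the CK libraries. LOC_Os06g47360, another beta-expansin, was at 3.06, 0.0860 and 3.95 FPKM in CK and was listed at 0 in every GLY library. With CK2 far under the other CK libraries, its log2 fold change of -1.48 did not pass the test (SE 0.580, adjusted p = 0.120 by limma). Both genes passed the minimum through CK alone. The next expansin on the chromosome after LOC_Os09g29690, LOC_Os09g29710 (chr9:18067434-18068462), went the other way, with 0.222, 0.400 and 0.154 FPKM in CK and 1.09, 1.57 and 1.95 FPKM in GLY. Its groups did not overlap, but its log2 fold change of 0.999 was just under the fold threshold (SE 0.176, adjusted p = 0.0125 by limma), and it was 1.08 without CK2 and 1.13 without GLY1. LOC_Os09g29710 passed the minimum through GLY alone. The closeness in sequence of these neighbours was not examined, and how reads were shared between similar expansins is not given in the sources used here.

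Among the other expansins LOC_Os10g40700 (chr10:21830151-21831694) rose, from 0.243, 0.365 and 0 FPKM in CK to 3.25, 2.40 and 1.16 FPKM in GLY. The gene passed the minimum through GLY alone, with a CK mean of 0.203 FPKM. The groups did not overlap, GLY3 was the lowest GLY library, and the log2 fold change was 1.40 (SE 0.282, adjusted p = 0.0188 by limma). The call was lost without CK1, CK3 or GLY2, with adjusted p = 0.0564, 0.0627 and 0.0636 by limma, and with no moderation of variances, with adjusted p = 0.0530. It stands first in a row of 4 expansin genes on chromosome 10, in which LOC_Os10g40710 and LOC_Os10g40720 had log2 fold changes of 0.50 and 0.47 with overlapping groups, and the last, LOC_Os10g40730, was not tested. LOC_Os03g04020, the expansin with the highest mean over the 6 libraries, was at 10.1, 10.6 and 7.01 FPKM in CK and at 15.5, 14.7 and 12.8 FPKM in GLY. Its groups did not overlap and its log2 fold change was 0.60 (SE 0.171, adjusted p = 0.0529 by limma), which missed both thresholds. LOC_Os04g49410 and LOC_Os07g29290 had log2 fold changes of 0.76 (adjusted p = 0.00903) and 0.66 (adjusted p = 0.0357) by limma, under the fold threshold. LOC_Os06g50960 ranged from 2.17 to 9.78 FPKM in CK and from 3.56 to 11.3 FPKM in GLY, and its groups overlapped over most of their range. Of the 21 expansins that were not tested, 4 were higher and 1 was lower in all GLY libraries than in any CK library. Over all tested entries the shares were 34.3% and 10.6%. These are not a like measure, since the 21 had a median of 0.041 FPKM and 6 of them were above 0 in 1 library only.

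**Figure D4:**
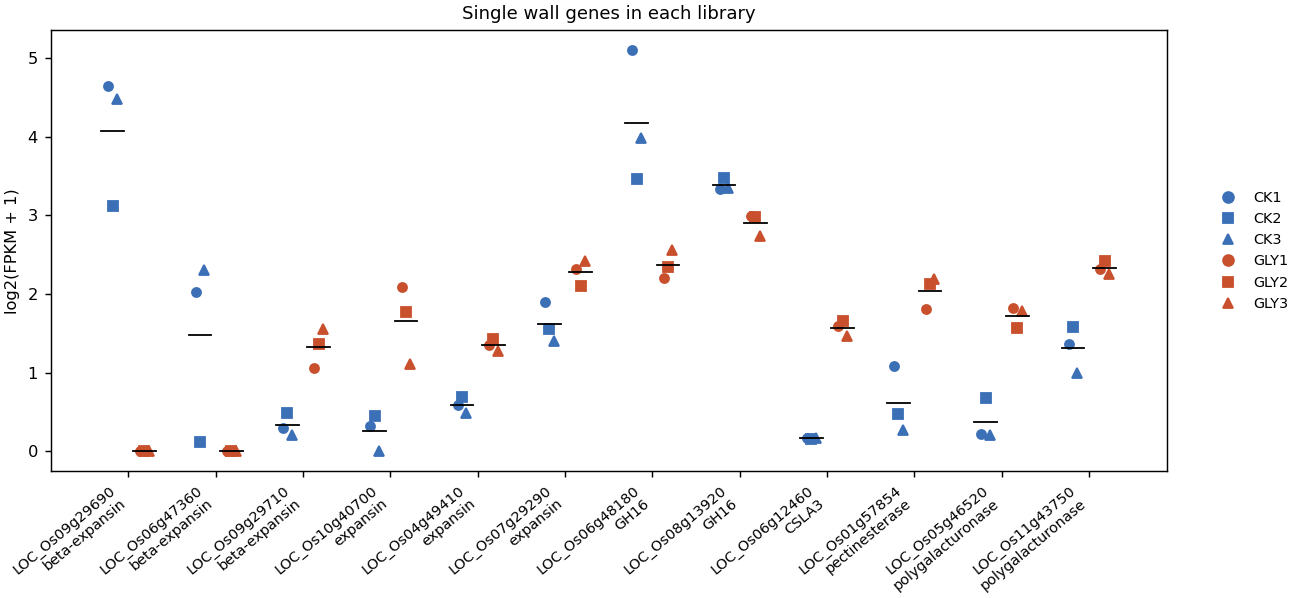
Level of 12 wall genes in each of the 6 libraries, as log2(FPKM + 1); points are libraries and bars are means of the log2 values (n = 3). The beta-expansins LOC_Os09g29690 and LOC_Os06g47360 are at 0 in all GLY libraries, with CK2 the lowest of the CK libraries in both.

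The xyloglucan and GH16 family showed no common direction. Of 37 entries 10 were tested, none rose and 1 fell, against 5.96% and 2.1% of all tested entries. The median log2 fold change was 0.03, which became -0.17 after median-of-ratios scaling. The 25 GH16 entries summed to 50.7, 28.3 and 30.0 FPKM in CK and to 20.3, 23.3 and 21.3 FPKM in GLY, lower in every GLY library. Without LOC_Os06g48180 the other 24 summed to 17.5, 18.3 and 15.2 FPKM in CK and to 16.7, 19.2 and 16.4 FPKM in GLY, and the groups overlapped. LOC_Os06g48180 (chr6:29144827-29146607), the GH16 gene with the highest level, was at 33.2, 9.98 and 14.8 FPKM in CK and at 3.62, 4.09 and 4.90 FPKM in GLY. It fell with a log2 fold change of -1.80 (SE 0.417, adjusted p = 0.0285 by limma). The CK libraries were spread widely, and the call was lost without CK3, GLY1, GLY2 or GLY3, with adjusted p = 0.0726, 0.0840, 0.0828 and 0.0644 by limma, and with no filter on low values or no moderation of variances, with adjusted p = 0.0581 and 0.0801. The 3 GH16 genes beside it on chromosome 6 were under the minimum. LOC_Os08g13920, also of GH16, was at 9.04, 10.1 and 9.17 FPKM in CK and at 6.95, 6.87 and 5.65 FPKM in GLY, with a log2 fold change of -0.48 (SE 0.109, adjusted p = 0.0265 by limma) under the fold threshold.

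The xyloglucan fucosyltransferases, which in Arabidopsis add fucose to the side chains of xyloglucan, differed in how closely their replicates lay. LOC_Os02g52560 was at 8.23, 0.716 and 7.14 FPKM in CK and at 19.1, 18.5 and 18.1 FPKM in GLY. All GLY libraries were above all CK libraries, but with CK2 so far under the others the log2 fold change of 1.95 did not pass (SE 0.652, adjusted p = 0.0805 by limma), and without CK2 it was 1.17 with adjusted p = 0.00571. LOC_Os02g17534 was at 10.8, 10.3 and 0.687 FPKM in CK and at 7.32, 6.65 and 0.0545 FPKM in GLY, so that the libraries numbered 3 were the lowest of both groups. LOC_Os02g52610, in the same row of genes as LOC_Os02g52560, was between 5.34 and 6.33 FPKM in all 6 libraries. An entry described as a xyloglucan galactosyltransferase, LOC_Os03g05110, was at 0 in CK2 and GLY2 and between 0.454 and 1.68 FPKM in the other libraries.

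Of the 21 CSL entries 8 were tested, and 1 rose while none fell, against 5.96% and 2.1% of all tested entries. CSLA proteins make mannan, and CSLA3 (LOC_Os06g12460, chr6:6758046-6763766) was at 0.119, 0.118 and 0.120 FPKM in CK and at 2.02, 2.16 and 1.75 FPKM in GLY. Its log2 fold change was 1.41 (SE 0.118, adjusted p = 0.00153 by limma), and the call was kept without each library in turn. CSLA3 passed the minimum through GLY alone, with a CK mean of 0.119 FPKM, and in those fits the minimum was still set on all 6 libraries. Most of its FPKM in GLY came from 3 transcripts assembled by the study at this locus, while the annotated transcript was at 0.280 FPKM or less in every library. The other CSLA genes tested, CSLA6 and CSLA5, had log2 fold changes of -0.18 and -0.12 with overlapping groups. The CSLC proteins make the xyloglucan backbone, and CSLC1, CSLC7 and CSLC2 had log2 fold changes of 0.17, 0.15 and 0.30 with adjusted p = 0.406, 0.390 and 0.147 by limma. CSLD2 was at 1.66, 4.69 and 4.16 FPKM in CK and at 6.60, 6.08 and 7.11 FPKM in GLY, without overlap, and its log2 fold change of 0.83 did not pass (SE 0.300, adjusted p = 0.0988 by limma). CSLE2, with the highest level among the CSL entries, was at 8.60, 9.92 and 8.91 FPKM in CK and at 9.08, 12.9 and 12.4 FPKM in GLY, and its entry joins 2 annotated loci. The median log2 fold change of the 8 was 0.23, and 0.00 after median-of-ratios scaling, with 4 above 0 and 4 below.

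CSLF and CSLH proteins make mixed-linkage glucan, a polysaccharide typical of grass walls. The 3 CSLF entries and the 1 CSLH entry chosen were all under the minimum, but CSLF6 and CSLH1 were among the entries described on a transcript only. CSLF6 (LOC_Os08g06380), the main mixed-linkage glucan synthase of rice, was at 4.53, 6.82 and 4.57 FPKM in CK and at 9.63, 9.62 and 8.98 FPKM in GLY, with a log2 fold change of 0.74 (SE 0.158, adjusted p = 0.0225 by limma). CSLH1 (LOC_Os10g20090) went in the opposite direction, with 16.5, 18.8 and 14.8 FPKM in CK and 7.21, 9.25 and 9.03 FPKM in GLY. Its log2 fold change of -0.90 (SE 0.136, adjusted p = 0.00797 by limma) was under the fold threshold and reached -1.18 after median-of-ratios scaling. The groups did not overlap for either gene.

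**Figure D5:**
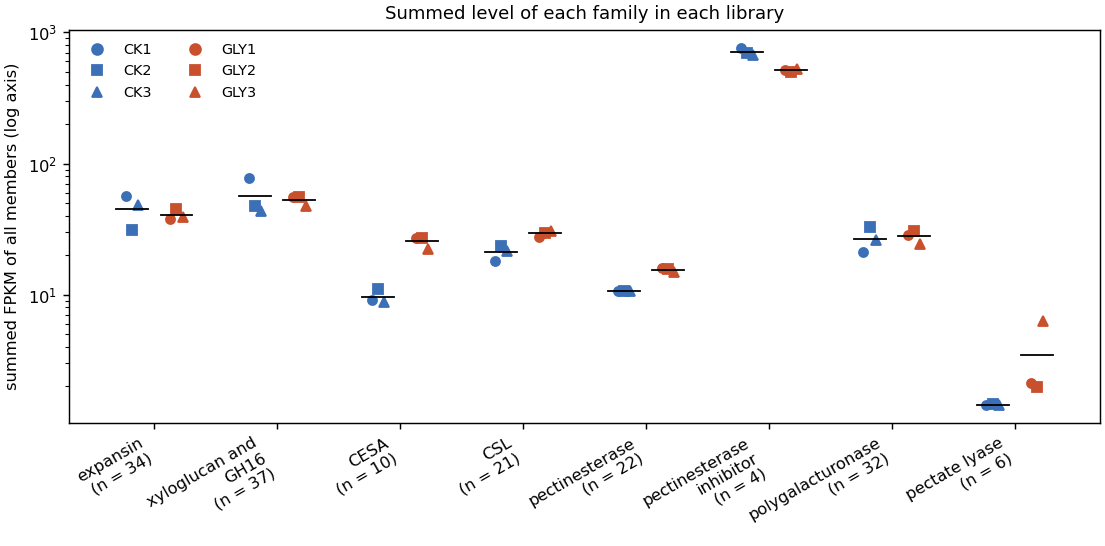
Summed FPKM of all entries of each of the 8 wall gene families in each of the 6 libraries, on a log axis; points are libraries, bars are group means (n = 3), and n under a name is the number of entries. The CESA sum is higher in all GLY libraries (22.2 to 27.3) than in CK (8.76 to 11.0), and the pectinesterase inhibitor sum is lower, between 498 and 525 in GLY and between 673 and 758 in CK.

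Of 22 pectinesterase entries 4 were tested, and 1 rose, where 5.96% of all tested entries were called higher. LOC_Os01g57854 (chr1:33453433-33460087) was at 1.13, 0.389 and 0.201 FPKM in CK and at 2.5, 3.36 and 3.56 FPKM in GLY, without overlap. Its log2 fold change was 1.43 (SE 0.244, adjusted p = 0.0114 by limma), and the call was kept without each library in turn. The sum over the 22 pectinesterases had a mean of 10.7 FPKM in CK and 15.6 FPKM in GLY, and the groups did not overlap. LOC_Os10g26680, which had the highest level among them, was at 6.44, 6.13 and 7.29 FPKM in CK and at 9.09, 7.54 and 7.24 FPKM in GLY, with overlapping groups and a log2 fold change of 0.23 (adjusted p = 0.211 by limma).

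Pectinesterase inhibitors bind pectinesterases and block them. The inhibitor gene LOC_Os03g01020 (chr3:26526-28075) had the highest level of all 166 entries, with 758, 697 and 673 FPKM in CK and 519, 498 and 525 FPKM in GLY. The groups did not overlap and the replicates were close, and the log2 fold change of -0.46 (SE 0.0737) had an adjusted p of 0.00927 by limma, under the fold threshold. After median-of-ratios scaling it was -0.76. The other 3 inhibitor entries had means of at most 0.0627 FPKM.

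Of 32 polygalacturonase entries, 4 of them for inhibitors of polygalacturonase, 13 were tested and 2 rose, while 4 were higher and 1 was lower at the adjusted p alone. Over all tested entries 5.96% were called higher, and 19.3% were higher and 5.65% lower at the adjusted p alone. LOC_Os05g46520 (chr5:26943380-26945869) was at 0.165, 0.597 and 0.149 FPKM in CK and at 2.52, 1.95 and 2.43 FPKM in GLY. Its log2 fold change was 1.35 (SE 0.176, adjusted p = 0.00504 by limma), and the call was kept without each library in turn. This gene passed the minimum through GLY alone, with a CK mean of 0.304 FPKM, and in those fits the minimum was still set on all 6 libraries. LOC_Os11g43750 (chr11:26419973-26423934) was at 1.58, 1.99 and 0.994 FPKM in CK and at 3.99, 4.33 and 3.75 FPKM in GLY. Its groups did not overlap, but its log2 fold change of 1.01 (SE 0.168, adjusted p = 0.0104 by limma) lay at the threshold and was 0.80 after median-of-ratios scaling, 0.85 without CK3 and 0.97 without GLY2.

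The remaining polygalacturonases went in both directions. LOC_Os01g43160 and LOC_Os02g54030 had log2 fold changes of 0.90 (adjusted p = 0.0205) and 0.67 (adjusted p = 0.0167) by limma, and LOC_Os03g61800 had -0.50 (adjusted p = 0.0373). LOC_Os05g20020, with the highest level of the family, was at 8.06, 5.18 and 6.73 FPKM in CK and at 3.21, 5.80 and 4.15 FPKM in GLY, with overlapping groups. LOC_Os01g19170 was at 0.194, 12.0 and 5.80 FPKM in CK and at 0.607, 0.731 and 0.153 FPKM in GLY, so that CK2 and CK3 alone were high. The polygalacturonase inhibitor tested, LOC_Os08g39550, of a class that in plants restrains fungal polygalacturonases, had a log2 fold change of -0.34 (SE 0.134, adjusted p = 0.125 by limma). Summed over the 32 entries, CK was at 26.7 ± 5.91 FPKM and GLY at 27.9 ± 3.14 FPKM (SD, n = 3 each), a difference smaller than the spread between libraries.

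Of 6 pectate lyase entries 2 were tested and none was called. LOC_Os01g36620 was listed at 0 in 5 libraries and at 4.29 FPKM in GLY3, so its group mean rests on that library. LOC_Os10g31910 was at 0.870, 1.12 and 1.16 FPKM in CK and at 1.30, 1.24 and 1.21 FPKM in GLY, with a log2 fold change of 0.14 (SE 0.112, adjusted p = 0.421 by limma).

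Other wall genes were counted in lists matched on the descriptions. The minimum was the same, so genes that passed it through GLY alone had to differ to be tested. The counts in these lists are descriptions. In the list of cellulose and callose partners (COBRA proteins, endoglucanases, callose, glucan and sucrose synthases), 7 of 21 tested genes rose and none fell, where 5.96% of all tested entries were called higher and 2.1% lower, and the median log2 fold change was 0.51. At the adjusted p alone 11 were higher and 2 lower, against 19.3% and 5.65% of all tested entries. Of the 11, LOC_Os04g41970, LOC_Os03g28330 and LOC_Os03g30250 passed the minimum through GLY alone. The 2 lower genes were the sucrose synthases LOC_Os04g17650 and LOC_Os04g24430 with log2 fold changes of -0.95 (adjusted p = 0.00359) and -0.81 (adjusted p = 0.00560) by limma. The other sucrose synthases tested, LOC_Os03g28330 and LOC_Os06g09450, had 0.79 (adjusted p = 0.00974) and -0.06 (adjusted p = 0.745) by limma. The 7 that rose were 5 endoglucanases, a family that includes the Arabidopsis KORRIGAN protein of cellulose synthesis, and 2 COBRA genes. The endoglucanase LOC_Os04g41970 went from 0.206, 0.114 and 0.287 FPKM in CK to 9.63, 6.99 and 9.03 FPKM in GLY, with a log2 fold change of 2.98 (SE 0.141, adjusted p = 0.000325 by limma). It passed the minimum through GLY alone. The endoglucanase LOC_Os09g23084 went from 6.98, 5.86 and 7.14 FPKM to 25.9, 25.4 and 26.2 FPKM. The COBRA genes LOC_Os05g32110 and LOC_Os07g41310 had log2 fold changes of 1.49 and 1.07, with adjusted p = 0.00685 and 0.00601 by limma. The other COBRA entries tested, LOC_Os03g30250, LOC_Os07g49080, LOC_Os10g35460 and LOC_Os03g18910, were not called, with log2 fold changes of 0.80, 0.51, 0.47 and 0.40. Of these only LOC_Os03g30250 had an adjusted p under 0.05 (0.0173 by limma), and it was tested through GLY alone, with a CK mean of 0.131 FPKM.

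In the list of structural wall proteins 7 of 29 tested genes rose and 1 fell, against 5.96% and 2.1% of all tested entries, with a median log2 fold change of 0.40. At the adjusted p alone 8 were higher and 2 lower, against 19.3% and 5.65% of all tested entries. Of the 7, 5 were fasciclin proteins, wall glycoproteins that are often found where secondary walls form. The fasciclin gene LOC_Os05g48900 went from 0.577, 0.816 and 0.606 FPKM in CK to 8.27, 7.75 and 5.27 FPKM in GLY, with a log2 fold change of 2.26 (SE 0.175, adjusted p = 0.00120 by limma). The gene that fell, LOC_Os03g07270, encodes a glycine-rich wall protein and went from 13.4, 12.6 and 17.8 FPKM to 2.71, 0 and 0 FPKM. The structural list shares 12 entries with the pollen and flower list, since the Pollen Ole e I description stands with extensins in the annotation, and 1 of these 12, LOC_Os09g39950, is among the 7.

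In the hemicellulose list 2 of 38 tested genes rose and none fell (5.26% called, against 8.06% of all tested entries). The median was 0.15, under the 0.20 of all tested entries. At the adjusted p alone 13 were higher and none lower, where 19.3% of all tested entries were higher and 5.65% lower. The 2 that rose were the beta-mannosidase or glucosidase gene LOC_Os01g32364 (log2 fold change 2.00, adjusted p = 0.00109 by limma) and LOC_Os04g55670 of glycosyltransferase family 43 (1.01, adjusted p = 0.00757), a family that builds the xylan backbone. In the pectin list 1 of 24 tested genes rose and 1 fell (8.33% called, against 8.06% of all tested entries), with a median of 0.10. At the adjusted p alone 3 were higher and 3 lower, against 19.3% and 5.65% of all tested entries. The gene that rose, LOC_Os11g06980, encodes a BURP domain protein and went from 0.693, 4.22 and 0.464 FPKM to 33.8, 32.5 and 19.5 FPKM. Of 4 tested genes of nucleotide sugar synthesis none was called by limma, against 8.06% of all tested entries. At the adjusted p alone 1 was higher and none lower, against 19.3% and 5.65%.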

How the data were processed

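Ribosomal RNA was depleted from leaf RNA and paired-end libraries were sequenced. The authors used Bowtie 2 and TopHat2 for mapping, with Nipponbare as the reference (IRGSP build 5.0 in their methods), and coordinates are those of the files. They assembled transcripts with StringTie, and the deposited FPKM were calculated with Ballgown for genes and transcripts in each library, without pooling. The deposited transcript values include read coverage per base, and coverage divided by FPKM gave the total used for scaling. No read counts were used, so counting error is unknown. DESeq, named in the methods, is a count model and was not used.

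Values were fitted as log2(FPKM + 1) with limma 3.58.1 (lmFit, eBayes with trend, two-sided) in R 4.3.3, without covariates, on all 19316 entries with a mean of at least 0.5 FPKM, and p-values were adjusted over all of them. The fit was tested on simulated data. The alternatives were the unadjusted P of the study, the adjusted p without a fold minimum, a pseudocount of 0.1, no filter and a minimum of 1 FPKM. Further alternatives were median-of-ratios scaling, the Ballgown covariate without moderation of variances, no moderation alone, a replicate block and each library left out.

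Members and lists were chosen with earlier results of these data known. By rule, each family's called genes with the largest changes (at most 4 in each direction), its gene with the highest mean and every tested, numbered CESA gene were named. Other genes were named after their values were seen. Of the 166 members, 152 held annotated transcripts only. Gene functions are background knowledge, and no sequences were used. The small RNA and degradome data of the study were not used.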

Additional observations from a re-analysis of the deposited data

How the results depend on the processing

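Under the alternatives without the Ballgown covariate, between 7 and 15 wall genes were called higher (10 in the reported fit) and between 1 and 5 lower (2 in the reported fit). With the adjusted p and no minimum of fold change 5 were lower, and with no filter, with no moderation of variances and with the replicate block 1 was lower. Leaving out each library in turn gave 7 to 12 higher and 1 to 3 lower. Over all tested entries the share called in the refits without that covariate ran from 3.98% with no filter to 13.1% with a pseudocount of 0.1. It was 8.06% in the reported fit, and 24.9% passed at the adjusted p alone. The fit with the Ballgown covariate was also without moderation of variances. In it 0 were higher and 0 were lower by limma, 5 of the 57 had an unadjusted p under 0.05, and the fold change of LOC_Os01g57854 turned to -1.63. No entry of the gene table was called in that fit, and the covariate was nearly the treatment itself (correlation 0.988). At the study's unadjusted P, 11 were higher and 3 lower. Whether the replicate numbers pair the samples is not given in the sources used here. The deviations of same-numbered libraries correlated at 0.003, 0.010 and 0.006, which cannot settle whether they were handled as sets. The replicate block gave 9 higher and 1 lower, and 10 of the 12 calls were shared with the reported fit. The other 2, LOC_Os01g57854 and LOC_Os06g48180, had adjusted p = 0.0560 and 0.0686 by limma with the block. Over all entries a pseudocount of 0.1 gave 1953 higher and 570 lower calls, against 1151 and 405. The median log2 fold change of the CESA genes was 2.46 with that pseudocount and 0.71 with no filter. The low FPKM of most wall genes, with 109 of 166 under the minimum, limits what can be said of them. The cause of these changes was not tested.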
